A study of Homo sapiens with 4 samples.

Results

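The EGR, NR4A and IER immediate early genes were measured in Huh7, an established cell line from a human hepatocellular carcinoma, after 4 days with 300 µM hydrogen peroxide (H2O2) or with mock treatment, both with fresh medium each day. The 8 genes EGR1, EGR2, EGR3, NR4A1, NR4A2, NR4A3, IER2 and IER3 were taken by name, and all 8 were found among the 42067 gene names of the tables. Each gene was represented by the transcript model with the most reads over the 4 libraries. Both the H2O2 and the mock group held 1 library titled H and 1 titled Q. What H and Q stand for is not known here, and nothing states that the libraries came from separate cultures, so the p-values measure the spread between these libraries, which may be technical. All cells were of 1 line, and no other genotype was tested.

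Immediate early genes are transcribed within minutes of a growth factor, serum or stress signal, without the need for new protein synthesis. All libraries here were of treatment day 4, so no course over minutes after a dose was measured. Signals through RAS and the ERK kinases activate ternary complex factors that sit with the serum response factor SRF on CArG boxes, and kinases that phosphorylate CREB on cyclic AMP response elements (CREs). The EGR proteins are zinc finger transcription factors, the NR4A proteins are orphan nuclear receptors that act without a known natural hormone, and IER2 and IER3 are short-lived proteins named for their early response. In mouse liver the NR4A receptors are known to raise genes of glucose production, and EGR1 is known for its role in regeneration.

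Promoter windows are shown because shared response elements are what these genes are known for. RefSeq windows of GRCh38.p14, from 250 bases before to 50 bases after a gene start, were found for 5 of the 8 genes, and those with a CArG box or a CRE half-site (TGACG, either strand) are printed 5′ to 3′. Capitals mark CArG boxes and CRE half-sites.
EGR1 (chr5:138465229-138465528, plus strand): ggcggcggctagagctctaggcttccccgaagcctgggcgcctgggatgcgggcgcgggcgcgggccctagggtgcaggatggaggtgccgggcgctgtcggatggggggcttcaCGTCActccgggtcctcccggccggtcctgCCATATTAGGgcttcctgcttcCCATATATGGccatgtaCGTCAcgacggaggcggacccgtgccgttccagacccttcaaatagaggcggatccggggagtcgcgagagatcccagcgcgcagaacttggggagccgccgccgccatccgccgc
EGR2 (chr10:62816317-62816616, minus strand): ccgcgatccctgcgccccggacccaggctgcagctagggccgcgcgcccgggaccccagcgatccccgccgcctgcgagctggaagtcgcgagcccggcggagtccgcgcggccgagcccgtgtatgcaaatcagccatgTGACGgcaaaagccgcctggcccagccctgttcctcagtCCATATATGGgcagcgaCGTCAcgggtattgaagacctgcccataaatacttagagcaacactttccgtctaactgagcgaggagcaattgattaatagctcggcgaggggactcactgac
NR4A3 (chr9:99821635-99821934, plus strand): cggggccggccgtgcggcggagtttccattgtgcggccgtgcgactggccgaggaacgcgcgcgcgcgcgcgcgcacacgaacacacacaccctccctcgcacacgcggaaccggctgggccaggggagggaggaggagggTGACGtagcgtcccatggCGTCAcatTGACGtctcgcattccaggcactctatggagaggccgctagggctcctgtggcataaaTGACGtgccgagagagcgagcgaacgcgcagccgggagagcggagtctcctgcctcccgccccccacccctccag
IER2 (chr19:13150161-13150460, plus strand): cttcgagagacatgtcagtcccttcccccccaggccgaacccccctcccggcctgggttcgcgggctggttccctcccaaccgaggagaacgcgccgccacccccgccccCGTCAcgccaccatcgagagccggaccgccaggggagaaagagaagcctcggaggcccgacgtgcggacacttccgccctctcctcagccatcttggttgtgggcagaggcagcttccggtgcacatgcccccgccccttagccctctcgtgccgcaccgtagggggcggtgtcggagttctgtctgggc
The EGR1 window held 2 CArG boxes, which began 105 and 83 bases before the start, and 2 CRE half-sites. The EGR2 window, the most downstream of 3 for that gene, held 1 CArG box, which began 71 bases before the start, with 2 CRE half-sites. The NR4A3 window held 0 CArG boxes and 4 CRE half-sites, and the IER2 window 1 half-site. The NR4A1 windows and the remaining EGR2 windows, which are not printed, held 0 CArG boxes and 0 CRE half-sites. Windows were taken by gene name and not matched to the start of the counted transcript model. A window may therefore belong to another start of the gene. A CArG box was found in 1.29% and a CRE half-site in 24.6% of all 35116 windows. The full CRE (TGACGTCA, which contains the half-site), the EGR site (GCGTGGGCG), the NR4A element NBRE (AAAGGTCA) and the TATA motif (TATAAA) had no match in any window of these genes, and were present in 1.85%, 0.795%, 1.22% and 11.5% of all windows. The ETS core (GGAA), which in the EGR1 window met a CArG box, lay in every window of these genes and in 95.5% of all windows. Matches are letters in a window, and no binding was measured.

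The libraries held 78126878 to 88409567 mapped read mates, and 27514 genes passed the filter on low counts, all 8 immediate early genes among them. Levels are TMM-normalised CPM, reads scaled to the effective library size. Markers of hepatocytes summed to 14500 CPM (H) and 8910 CPM (Q) under H2O2, against 10800 CPM (H) and 4660 CPM (Q) under mock, and ALB, the albumin gene, measured at least 2560 CPM. The sum over these 7 markers was higher with H2O2 within each letter and higher in library H within each group, but ALB made up most of it and the markers did not move together. HNF4A, a hepatocyte transcription factor, had 216 and 206 CPM with H2O2 and 426 and 228 CPM with mock in libraries H and Q, lower with H2O2 within both letters. TTR, or transthyretin, was also lower within both, at 14.8 and 20.5 CPM with H2O2 and 17.7 and 25.9 CPM with mock, and was lower in library H. APOA1, an apolipoprotein, was lower within letter H, at 688 CPM with H2O2 and 821 CPM with mock. Within letter Q APOA1 was higher, at 456 CPM with H2O2 and 185 CPM with mock. The remaining markers ALB, APOB, SERPINA1 and FGB were higher with H2O2 within both letters. In libraries H and Q, APOB had 2130 and 1490 CPM with H2O2 and 1480 and 934 CPM with mock. SERPINA1 had 2020 and 1320 CPM with H2O2 and 1810 and 656 CPM with mock. FGB had 320 and 229 CPM with H2O2 and 247 and 73.8 CPM with mock. The part of these markers in the results below was not tested. Of 14 markers of other cell types (fibroblast and stellate, endothelial, blood), the defining genes PTPRC of leukocytes and CDH5 of endothelium reached at most 0.272 and 0.107 CPM, while COL1A1, a collagen gene, measured 14.3 to 21.8 CPM.

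The 8 genes spanned a wide range of levels. Per kb of transcript, IER2 stood first with 43.8 (H) and 24.8 (Q) CPM per kb under H2O2, against 28.0 (H) and 21.7 (Q) under mock. IER3 had 33.8 and 22.9 CPM per kb with H2O2 and 12.3 and 20.3 with mock, and EGR1 had 33.6 and 9.15 with H2O2 and 15.7 and 6.85 with mock. The ranges of IER2, IER3 and EGR1 overlapped with H2O2, while with mock IER3 overlapped EGR1, EGR1 overlapped NR4A1 and EGR2 overlapped NR4A3. On this scale NR4A1 followed at 8.68 and 7.20 CPM per kb with H2O2 and 4.86 and 7.90 with mock. NR4A2 had 4.88 and 5.32 with H2O2 and 3.59 and 3.56 with mock. EGR2, NR4A3 and EGR3 had at most 0.675 CPM per kb in any library, and EGR3 was lowest in all 4 on this scale. EGR1 made up 97.9% and 91.9% of the summed per-kb level of EGR1, EGR2 and EGR3 under H2O2 (H and Q), and 97.8% and 92.1% under mock. The deposited FPKM, which is also scaled to length, gave another order. NR4A1 was highest of the 8 in every library, at 85.0 and 78.1 with H2O2 and 46.7 and 86.3 with mock. IER2 had 55.0 and 36.2 with H2O2 and 39.4 and 31.4 with mock. In mock library H, EGR2 (0.609) was below EGR3 (0.961). The order of the genes thus depends on the measure, and the lengths behind the FPKM are not known here.

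**Figure D1:**
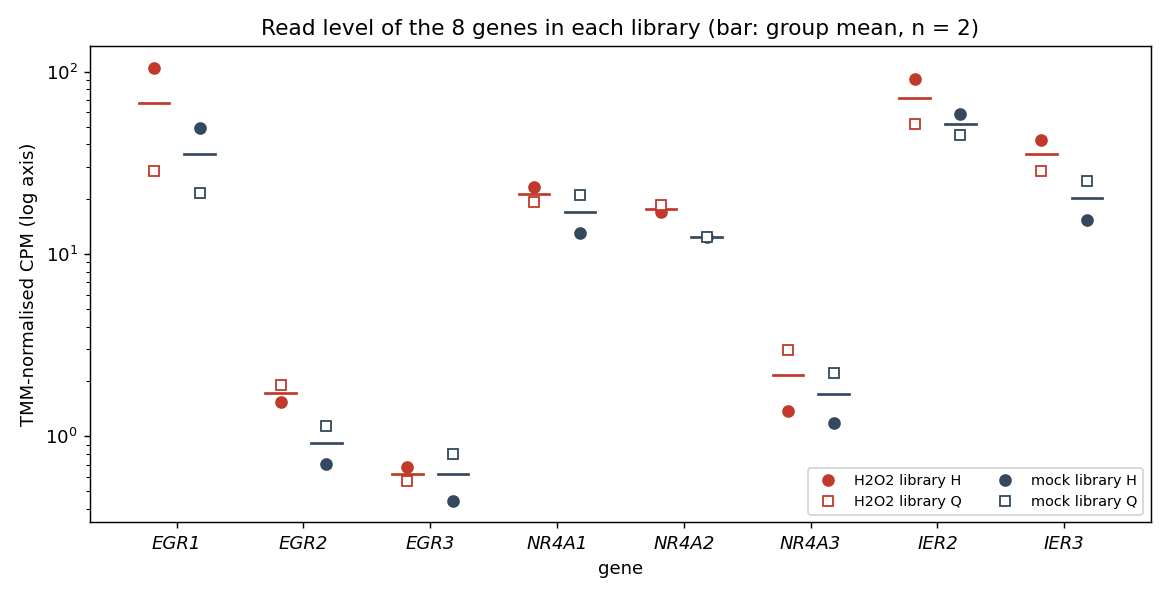
TMM-normalised CPM (log axis) of each gene in the 2 H2O2 and the 2 mock libraries, with filled circles for letter H, open squares for letter Q and a bar for the group mean. EGR2, NR4A2 and IER3 are the genes whose H2O2 points both lie above both mock points.

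EGR1 had the widest standard error of the 8 genes. It is the best known EGR factor, a zinc finger protein that binds GC-rich sites. EGR1 lay at 105.5 CPM (H) and 28.7 CPM (Q) under H2O2, against 49.2 CPM (H) and 21.5 CPM (Q) under mock. As these are bulk libraries, a share of cells and the RNA per cell cannot be told apart. Mock library H was above H2O2 library Q, so the groups overlapped, and the fitted log2 fold change was 0.92 (SE 0.70, 95% interval −0.85 to 2.70; edgeR, adjusted p = 0.788). EGR1 lay on the other side of 0, at −0.30, when H2O2 library H was left out, and reached 1.65 when mock library H was. Library H was above library Q by 1.88 log2 units with H2O2 and by 1.20 with mock, more than the fitted difference between the groups.

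EGR2, a relative of EGR1 best known from Schwann cell myelination and hindbrain patterning, did not overlap between groups. EGR2 measured 1.55 CPM (H) and 1.91 CPM (Q) under H2O2, against 0.702 CPM (H) and 1.14 CPM (Q) under mock (log2 fold change 0.90, SE 0.36, 95% interval −0.004 to 1.81; edgeR, adjusted p = 0.719). It was higher with H2O2 by 1.12 within letter H and by 0.73 within letter Q. The EGR2 model had 158 and 228 reads with H2O2 and 68 and 138 with mock, and the 4 EGR2 models repeated nearly the same reads, with totals of 570 to 592 over the 4 libraries.

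EGR3, an EGR factor known from muscle spindles and lymphocytes, had the lowest CPM of the members in every library and did not separate. EGR3 measured 0.676 CPM (H) and 0.569 CPM (Q) under H2O2, against 0.444 CPM (H) and 0.801 CPM (Q) under mock, so the mock libraries enclosed both H2O2 libraries (log2 fold change −0.006, SE 0.42, 95% interval −1.07 to 1.06; edgeR, adjusted p = 0.999). These rest on 69 and 68 reads with H2O2 and 43 and 97 with mock. The exact 95% counting intervals of the mock libraries, 31.1 to 57.9 and 78.7 to 118.3 reads, did not overlap. Those intervals are on reads not scaled to library size, and are too narrow because the read totals exceed the mapped mates. The other EGR3 models did not repeat these reads: NM_001199880 had 20 and 36 reads under H2O2 (H and Q), against 2 and 55 under mock. EGR4, the remaining gene of the family, had 2 and 12 reads under H2O2 (H and Q) and 1 and 9 under mock, and did not pass the filter. In both groups EGR4 had more reads in library Q.

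The NR4A receptors bind DNA as monomers, as dimers or, for NR4A1 and NR4A2, with the retinoid X receptor. NR4A1, also called NUR77, measured 23.3 CPM (H) and 19.3 CPM (Q) under H2O2, against 13.0 CPM (H) and 21.2 CPM (Q) under mock. Mock library H stood below the other 3 libraries, and the fitted log2 fold change was 0.32 (SE 0.30, 95% interval −0.45 to 1.07; edgeR, adjusted p = 0.821). The NR4A1 value was 0.02 without mock library H and 0.70 without mock library Q. An antisense gene, NR4A1AS, overlaps NR4A1 in the RefSeq annotation, and since it is not known whether counting used strand, reads of the pair cannot be told apart; the same holds for IER3 and IER3-AS1, and for EGR3 and LOC107986924.

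NR4A2, or NURR1, known for its role in dopamine neurons, had the smallest log2 difference between libraries H and Q in both groups. That log2 of H over Q was −0.13 with H2O2 and 0.01 with mock. NR4A2 measured 16.9 CPM (H) and 18.5 CPM (Q) under H2O2, against 12.5 CPM (H) and 12.4 CPM (Q) under mock, without overlap (log2 fold change 0.51, SE 0.20, 95% interval 0.008 to 1.02; edgeR, unadjusted p = 0.0476, adjusted p = 0.719). The group means were 17.7 ± 1.09 CPM with H2O2 and 12.4 ± 0.0796 CPM with mock (SD, n = 2). The within-letter values of 0.44 and 0.58 lay close to each other, and over the 14 alternative settings NR4A2 ranged from 0.45 to 0.60.

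NR4A3, or NOR1, followed the letter more than the treatment. NR4A3 measured 1.37 CPM (H) and 2.98 CPM (Q) under H2O2, against 1.18 CPM (H) and 2.22 CPM (Q) under mock (log2 fold change 0.35, SE 0.51, 95% interval −0.94 to 1.65; edgeR, adjusted p = 0.876). Library Q was the higher one in both groups, with a log2 of H over Q of −1.11 with H2O2 and −0.91 with mock, the opposite order to EGR1. Without H2O2 library Q the value was −0.29, and without mock library Q it was 0.88. A shorter NR4A3 model, NM_173199, had 52 and 132 reads with H2O2 and 38 and 109 with mock, with library Q again above library H. NR4A1 and NR4A2 made up nearly all of the family's per-kb level, and NR4A3 1.74% and 4.00% with H2O2 and 2.38% and 3.28% with mock in libraries H and Q.

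IER2, a nuclear protein linked to the cell cycle and to migration, measured 91.2 CPM (H) and 51.7 CPM (Q) under H2O2, against 58.5 CPM (H) and 45.2 CPM (Q) under mock. As with EGR1, mock library H lay above H2O2 library Q (log2 fold change 0.46, SE 0.33, 95% interval −0.368 to 1.296; edgeR, adjusted p = 0.781). Without H2O2 library H the IER2 value was −0.003.

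IER3, or IEX-1, which acts on cell survival and on ERK signalling, measured 42.0 CPM (H) and 28.5 CPM (Q) under H2O2, against 15.3 CPM (H) and 25.2 CPM (Q) under mock. The groups did not overlap, although H2O2 library Q exceeded mock library Q by a small margin (log2 fold change 0.80, SE 0.34, 95% interval −0.05 to 1.65; edgeR, adjusted p = 0.719). Within letters, IER3 differed by 1.45 for H and 0.18 for Q, and the fitted value was 0.49 without mock library H and 1.20 without mock library Q. The related gene IER5 measured 37.1 and 31.2 CPM with H2O2 and 21.7 and 38.6 CPM with mock in libraries H and Q (log2 fold change 0.18, SE 0.32), and IER5L 55.5 and 40.7 CPM with H2O2 and 51.0 and 44.2 CPM with mock (0.02, SE 0.23).

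No member passed the test over all genes. By edgeR's quasi-likelihood test 0 of 8 had an adjusted p under 0.05, against 0% of all 27514 genes in the upward direction and 0% in the downward. At an unadjusted p under 0.05, 1898 genes were counted in all, and DESeq2 called 139 genes and limma 0, with 0 of the 8 members called by either. In the upward direction 1 member, NR4A2, had an unadjusted p under 0.05, against 3.11% of all genes. Both H2O2 libraries lay above both mock libraries in 3 of 8 members, EGR2, NR4A2 and IER3, against 18.1% of all genes. In 0 of 8 members both lay below, against 21.3% of all genes. The fitted value was above 0 in 7 of 8 members, against 47.2% of all genes, and the median was 0.49 over the members and −0.03 over all genes. With 1 library left out, separation needs fewer libraries and was more frequent over all genes too. All H2O2 libraries lay above all mock libraries in 4 members without H2O2 library H (29.7% of all genes), 6 without H2O2 library Q (33.4%), 5 without mock library H (35.7%) and 6 without mock library Q (34.4%). Without mock library H, 1 member, EGR3, had both H2O2 libraries below the remaining mock library, against 40.6% of all genes.

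**Figure D2:**
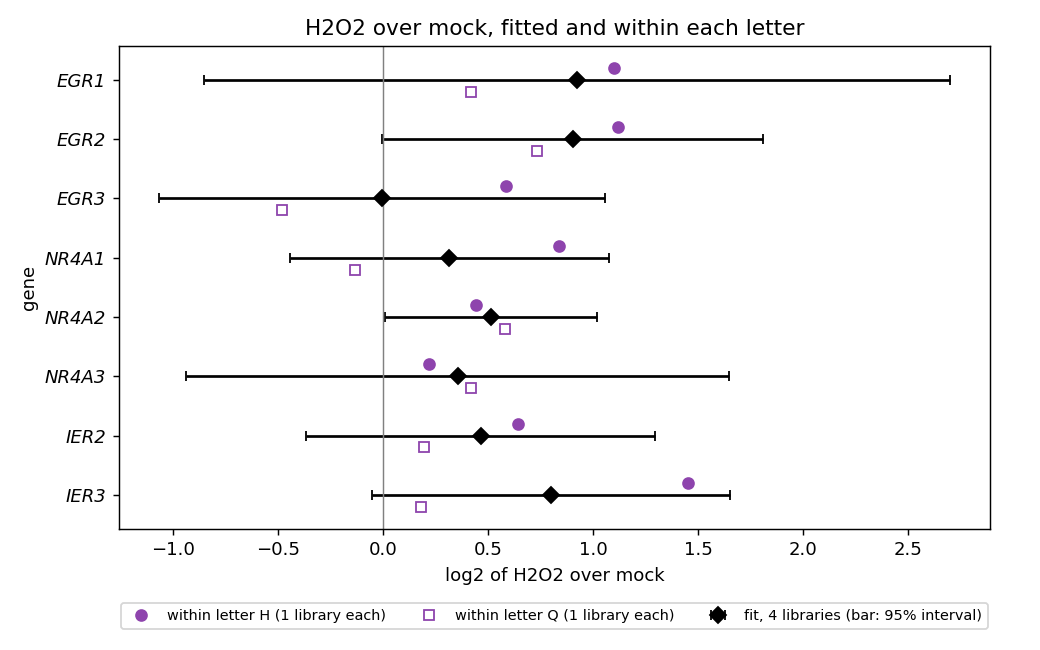
Log2 of H2O2 over mock for each gene, as fitted over the 4 libraries (diamond, with its 95% interval) and within each letter (circle for H, square for Q, 1 library per group). The interval lies above 0 for NR4A2 alone, from 0.008 to 1.02, and the letters fall on opposite sides of 0 for EGR3 and NR4A1.

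The median difference between groups was larger within letter H, at 0.74, than within letter Q, at 0.31. All 8 members were higher with H2O2 within letter H, against 48.9% of all genes. Within letter Q 6 of 8 were higher, against 49.2% of all genes. IER3 (1.45), EGR2 (1.12), EGR1 (1.10) and NR4A1 (0.84) led within letter H, and EGR2 (0.73), NR4A2 (0.58), NR4A3 (0.42) and EGR1 (0.42) within letter Q. Whether the letters differ in their response could not be tested with 1 library for each letter and group. The median log2 of library H over library Q was 0.26 over the members with H2O2 and −0.69 with mock, while over all genes it was −0.02 with H2O2 and −0.03 with mock.

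**Figure D3:**
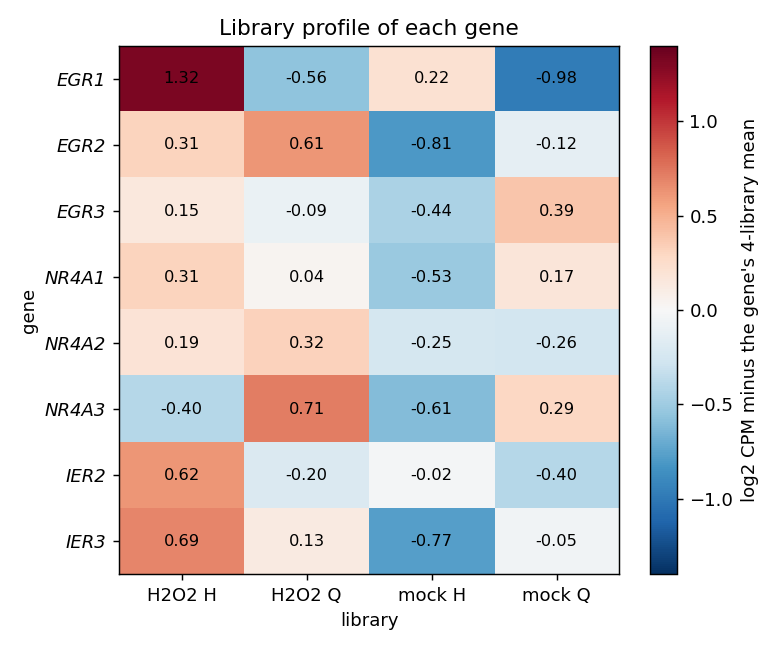
Log2 CPM of each gene minus its mean over the 4 libraries, with the H2O2 libraries left of the mock libraries. EGR1 is high in both H libraries (1.32 with H2O2 and 0.22 with mock), NR4A3 in both Q libraries (0.71 with H2O2 and 0.29 with mock), and EGR2, NR4A2 and IER3 are above their mean in both H2O2 libraries and below it in both mock libraries.

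The members fell into unlike profiles. The smallest root mean square difference between 2 members, over log2 CPM centred on the 4-library mean, was 0.16 log2 units for EGR3 and NR4A1, and the largest was 1.31 for EGR1 and NR4A3. The mean profile of the members was 0.40 (H) and 0.12 (Q) under H2O2, and −0.40 (H) and −0.12 (Q) under mock. Among 18272 other genes of at least 1 CPM, the nearest to that mean were C11orf30 (0.016), AHCYL1 (0.020), WRN (0.021), GNPDA2 (0.025) and SIMC1 (0.025), as root mean square differences over 4 libraries. AHCYL1, a regulator of the IP3 receptor, measured 197 and 166 CPM with H2O2 and 116 and 143 CPM with mock, and WRN, a RecQ helicase, 76.5 and 65.5 CPM with H2O2 and 45.3 and 55.0 CPM with mock, in libraries H and Q.

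Other immediate early genes, 32 of 34 of them tested, were higher with H2O2 in 25 and lower in 7, with a median of 0.21 and 0 past the threshold. Over all genes the fitted value was above 0 in 47.2%, the share to set beside this list and those below. Within letter H 29 of the 32 were higher, against 48.9% of all genes, and within letter Q 20 of 32, against 49.2%. ATF3, a stress-induced leucine zipper factor, measured 85.7 CPM (H) and 86.6 CPM (Q) under H2O2, against 15.6 CPM (H) and 42.5 CPM (Q) under mock, without overlap (log2 fold change 1.57, SE 0.48; edgeR, adjusted p = 0.719). FOS, a subunit of AP-1, measured 49.8 and 16.3 CPM with H2O2 and 16.7 and 10.1 CPM with mock, with the same order of libraries as EGR1 (1.299, SE 0.576; adjusted p = 0.723), and without H2O2 library H its value was 0.28. Both H2O2 libraries were above both mock libraries in 10 of the 32, against 18.1% of all genes, and below them in 1, against 21.3%. Without mock library Q the median of the 32 was 0.65 and the ATF3 value 2.46, and without mock library H they were 0.13 and 1.03.

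By fitted value, the genes that carry the signal to these promoters were split between both directions. Of 25 genes of RAS, ERK, ribosomal S6 kinases, CREB and SRF with its cofactors, 13 were higher and 12 lower, with a median of 0.005. Within letter H 18 of the 25 were higher, against 48.9% of all genes, and within letter Q 13, against 49.2%. Both H2O2 libraries were above both mock libraries in 7, against 18.1% of all genes, and below them in 2, against 21.3%. RPS6KA5, or MSK1, a kinase of CREB and histone H3, measured 1.16 and 1.05 CPM with H2O2 and 0.744 and 0.801 CPM with mock (log2 fold change 0.51, SE 0.30; edgeR, adjusted p = 0.754), and RPS6KA3, or RSK2, 599 and 359 CPM with H2O2 and 416 and 325 CPM with mock (0.37, SE 0.32; adjusted p = 0.808).

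Genes known to lie downstream were found in both directions. Of 20 EGR corepressors and known EGR1 targets, 7 were higher and 13 lower, with a median of −0.05. The corepressors NAB1 and NAB2, which bind EGR proteins, had values of −0.05 and 0.004. CD44, an adhesion receptor, measured 0.323 and 0.753 CPM with H2O2 and 0.640 and 5.19 CPM with mock (log2 fold change −2.43, SE 1.03; edgeR, adjusted p = 0.719), and mock library Q stood far above the rest: without it the value was −0.25.

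Of the NR4A partners and known targets, 16 of 18 were tested, with 6 higher, 10 lower and a median of −0.17. That median had no stable sign: it was −0.30 without H2O2 library H, 0.003 without H2O2 library Q, 0.16 without mock library H and −0.50 with mock library Q left out. The gluconeogenic genes PCK1 and G6PC, known NR4A targets in mouse liver, had values of 0.005 and −0.32, and the partner RXRA −0.15. Other genes of the list lay further from 0 in both directions, with FBP1 at −0.88 and PPARGC1A at 0.83. POMC, a pituitary NR4A target that was low in these cells, measured 0.1468 and 0.1004 CPM with H2O2 and 0.413 and 0.363 CPM with mock (log2 fold change −1.65, SE 0.47; edgeR, adjusted p = 0.719). NR0B2, an orphan receptor that represses other nuclear receptors, measured 0.538 and 1.56 CPM with H2O2 and 2.33 and 3.60 CPM with mock (−1.50, SE 0.57; adjusted p = 0.719). Neither POMC nor NR0B2 overlapped between the groups, and the NR0B2 value was −0.93 without H2O2 library H and −2.44 without H2O2 library Q.

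**Figure D4:**
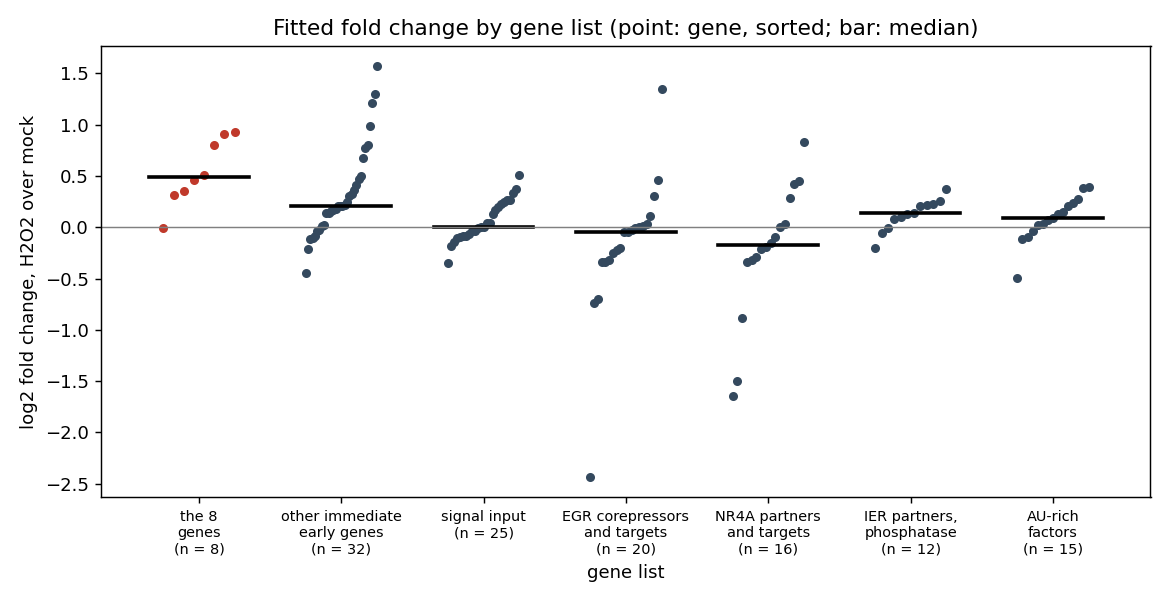
Fitted log2 fold change of H2O2 over mock for each gene of the 8 and of 6 lists, sorted within a list, with a bar at the median. The median is 0.49 for the 8 genes, 0.21 for other immediate early genes and between −0.17 and 0.14 for the other 5 lists.

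Partners of IER3 and IER2 and subunits of the phosphatase PP2A, through which IER3 acts on ERK, had 9 of 12 higher. The share of all genes was 47.2%, and the median of this list was 0.14. PPP2R2A, a regulatory subunit, measured 103 and 98.7 CPM with H2O2 and 79.6 and 76.7 CPM with mock (log2 fold change 0.37, SE 0.18; edgeR, adjusted p = 0.725), and PPP2R5C, another, had a value of 0.25 (SE 0.21), which was 0.10 without mock library Q and 0.43 without mock library H. Factors that bind AU-rich elements or decay such messages had 11 of 15 higher, against 47.2% of all genes, and a median of 0.09. Among these DCP2, a decapping enzyme, measured 41.9 and 44.8 CPM with H2O2 and 34.1 and 31.9 CPM with mock (0.39, SE 0.18; adjusted p = 0.725), and ZFP36L2, a decay factor, 94.1 and 57.8 CPM with H2O2 and 144 and 70.4 CPM with mock (−0.50, SE 0.42; adjusted p = 0.803).

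Messages of immediate early genes are known to be short-lived, in part through AU-rich elements built on the pentamer ATTTA. Pentamers were counted over whole GENCODE v29 transcripts matched by RefSeq accession, without separating coding from untranslated parts. IER3 held 6 pentamers in 1244 bases, or 4.82 per kb, the highest of the 8. NR4A3 held 11 (1.93 per kb), NR4A2 4 (1.15 per kb), NR4A1 3 (1.12 per kb), EGR2 2 (0.71 per kb), EGR3 3 (0.69 per kb) and EGR1 2 (0.64 per kb), while IER2 held 0. The median over 15735 tested genes with a matched transcript was 0.90 per kb, and 77.0% held at least 1. The longer AU-rich nonamer was found in 0 of the 8 transcripts and in 19.2% of all. In order of falling pentamer density, the fitted log2 fold changes were 0.80 (IER3), 0.35 (NR4A3), 0.51 (NR4A2) and 0.32 (NR4A1). They were then 0.90 (EGR2), −0.006 (EGR3), 0.92 (EGR1) and 0.46 (IER2). Whether density goes with fold change was not tested.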

How the data were processed

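Per the labels' protocols, total RNA of mock and H2O2 cells was made into libraries with a TruSeq kit. TopHat 1.3.3, Bowtie 0.12.2, Cuffdiff and CASAVA are named, per the submitters' processing notes, beside the builds GRCh37, hg19 and mm8, without saying what each was used for. Per the file headers, the deposited values are a count of reads and an FPKM for 58146 transcript models per library. The deposited FPKM was used in alternatives and beside the per-kb levels. How reads were counted, on which annotation and whether by strand is not given in the sources used here.

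Each gene was taken as its model with the most reads, and low genes were removed with filterByExpr (minimum count 10), which left 27514 of 42067. With 1 model per gene the totals were 113082498 and 112972746 reads in H2O2 libraries H and Q and 103851326 and 108117565 in mock libraries H and Q. They exceed the mapped mates, so counting intervals are too narrow, and they cover counting error only. Libraries were scaled by TMM in edgeR 4.0.16. H2O2 was compared with mock over all genes by the two-sided quasi-likelihood test (2 residual and 3.2 prior degrees of freedom) with Benjamini and Hochberg adjustment at 0.05. Log2 CPM used a prior count of 2. Alternatives included DESeq2 1.42.0 and limma 3.58.1. Scripts were tested on simulated data.

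The 8 members and the lists were chosen with earlier results of these data known. Besides the members, the text names EGR4, IER5 and IER5L, the 2 tested genes of each list with the largest absolute fold change (1 of them is not reported here), and the 5 genes nearest in profile. ALB and the cell type markers, and NAB1, NAB2, PCK1, G6PC and RXRA, were named for their roles after their values were seen. FBP1 and PPARGC1A were named for the size of their values.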

Additional observations from a re-analysis of the deposited data

Results flagged for a closer look

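For 4 genes the H2O2 library lay above the mock library within letter H and below it within letter Q, and the difference between the letters was not tested. The log2 differences within letters H and Q were 0.59 and −0.48 for EGR3, 0.84 and −0.13 for NR4A1, 0.77 and −0.30 for IER5, and 0.12 and −0.12 for IER5L. In all 4, each value rests on 1 library per group.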

How the results depend on the processing

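None of the 8 members passed 5% under any of the 14 alternatives (edgeR, DESeq2 or limma), and the median of the members stayed above 0, from 0.34 to 0.62. The number of genes past 5%, 0 as reported, was 9 with no filter, 139 with DESeq2 and 45 with the letter as a replicate block. It ranged from 0 to 13 with 1 library left out, with 13 without mock library Q. Libraries of 1 letter deviated together over all genes (correlation 0.47 over 27514 genes), but 2 pairs do not establish a pairing. In the blocked fit 5 of 8 members had an unadjusted p under 0.05, against 19% of all genes in that fit and 6.9% in the fit as reported, and the members' lowest adjusted p was 0.137 (EGR1, 0.76). The members with all H2O2 libraries above all mock libraries numbered 4 to 6 with 1 library left out, where 29.7% to 35.7% of all genes did so, and those below 0 to 1, where 31.2% to 40.6% did.

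EGR3 turned to 0.041 with summed counts, 0.006 with no filter, 0.028 with RLE scaling, 0.028 with DESeq2 and 0.035 with the block, and IER5L to −0.002 with the FPKM filter, −0.028 with mRNA genes only and −0.058 with library totals. With 1 library left out, the ranges were −0.302 to 1.654 for EGR1, −0.356 to 0.481 for EGR3, −0.287 to 0.881 for NR4A3, −0.003 to 0.834 for IER2, −0.165 to 0.65 for IER5, −0.224 to 0.24 for IER5L, −0.045 to 0.71 for RPS6KA3, −0.923 to 0.119 for ZFP36L2, 0.017 to 0.704 for NR4A1, 0.494 to 1.199 for IER3, 1.028 to 2.457 for ATF3, −2.437 to −0.93 for NR0B2 and 0.103 to 0.427 for PPP2R5C. List medians ranged from 0.132 to 0.65 for other immediate early genes, −0.495 to 0.162 for NR4A partners and targets, −0.047 to 0.13 for signal input, −0.128 to −0.03 for EGR corepressors and targets, 0.121 to 0.192 for IER partners and 0.034 to 0.234 for AU-rich factors. The causes were not tested. In these fits the lone library of a group is assumed to vary like the others. EGR3, with 43 to 97 reads, is the member most limited by depth. POMC did not pass the FPKM filter and has no value in the fits that use it.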
